A study of Homo sapiens with 8 samples.

Results

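Fatty acid oxidation and ketogenesis genes were examined in RNA-seq data from Hep3B, a cell line of human hepatocellular carcinoma. The 37 genes were chosen from a fixed list by name, and their rows were summed per gene in each of the deposited tables. All 37 were listed in the knockout table of 16040 genes, and 36 were listed in the siRNA table of 14955 genes, of 16169 genes in either table. The members comprised 6 genes of fatty acid uptake and activation, 20 of mitochondrial beta-oxidation, 7 of peroxisomal beta-oxidation, 2 of ketone body metabolism and 2 PPAR regulators. The 4 conditions, with 2 libraries each, were Hep3B, Hep3B carrying a CRISPR/Cas9 knockout of SOX4, Hep3B transfected with control siRNA and Hep3B transfected with STAT6 siRNA. All cells were grown in MEM with fetal bovine serum, non-essential amino acids and sodium pyruvate, and the knockout cells were kept in puromycin. Per the study's methods, the knockout libraries came from 2 knockout lines, and the labels do not say which line each library is. SOX4 and STAT6 are transcription factors, and the comparisons ask how transcript levels differ when either is removed or lowered. The knockout libraries also differ from Hep3B in puromycin and in coming from derived lines. In this design, those differences and the loss of SOX4 cannot be told apart. The labels do not say that libraries came from separate cultures, so p-values measure only the spread between these samples.

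Fatty acids that enter a hepatocyte are bound by carrier proteins and joined to coenzyme A by acyl-CoA synthetases. The carnitine shuttle then carries long-chain acyl groups into mitochondria, where each turn of beta-oxidation removes acetyl-CoA through dehydrogenation, hydration, a further dehydrogenation and thiolysis. Peroxisomes shorten very long and branched chains with their own oxidases and thiolase. In fasted liver, acetyl-CoA is turned into ketone bodies, and the nuclear receptor PPAR-alpha with its coactivator PGC-1-alpha is known for raising transcription of these genes.

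The total of expected counts, that is, of estimated reads per transcript, was 18484804 and 18123854 in Hep3B libraries 1 and 2, and 25353113 and 18924814 in knockout libraries 1 and 2. With control siRNA it was 18096907 and 20272261, and with STAT6 siRNA 16266282 and 22037721. Levels below are CPM, that is, counts scaled to the library's size with TMM factors, each table by itself. SOX4 was at 799 and 266 CPM in Hep3B and at 298 and 302 CPM in the libraries that carry the SOX4 knockout label, called labelled knockout libraries below (log2 fold change -0.83, SE, the standard error, 0.54, adjusted p = 0.372). The groups overlapped, so the SOX4 transcript gave no check of the knockout label, and each direction below rests on that label. STAT6 was at 32 and 13.2 CPM in Hep3B and at 2.76 and 2.2 CPM in the labelled knockout libraries, a fall (log2 fold change -3.18, SE 0.57, adjusted p = 0.0275). The log2 fold change of STAT6 was -3.35 without knockout library 1 (adjusted p = 0.141) and -3.05 without knockout library 2 (adjusted p = 0.196), where it did not pass, and -2.46 and -3.68 without Hep3B library 1 or 2, where it did. In the siRNA table, STAT6 was at 42.5 and 31.4 CPM with control siRNA and at 9.92 and 5.98 CPM with STAT6 siRNA. Its groups did not overlap (log2 fold change -2.22, SE 0.72), and p was 0.00834 before and 1.00 after adjustment. In a fit with a block for the library number, STAT6 was called, among 62 genes.

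The siRNA libraries numbered 1 stood apart from those numbered 2. Across genes, the difference of library 2 from library 1 correlated with the GC content of the transcript, with Spearman's rho of -0.75 in control siRNA and -0.81 in STAT6 siRNA, as a description over genes that share the libraries. In the knockout table the same value was -0.09 in Hep3B and 0.30 in the labelled knockout libraries. The differences within each library number, on the log2(CPM + 1) scale, are given beside the siRNA levels of the members.

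The labelled cell type was checked against 12 hepatocyte markers, which were all listed in both tables. ALB, which encodes albumin, was the most abundant of them, at 7458 and 6824 CPM in Hep3B and 28445 and 13644 CPM in the labelled knockout libraries. The summed level of the 12 markers was 16780 and 12121 CPM in Hep3B and 53895 and 32041 CPM in the labelled knockout libraries. For the siRNA libraries the sum was 15205 and 16852 CPM with control siRNA and 16856 and 21277 CPM with STAT6 siRNA. Of 16 markers of fibroblasts, endothelium, leukocytes, adipocytes and muscle, 8 were listed in the knockout table, summing to 49.4 and 37.9 CPM in Hep3B and to 93.8 and 122 CPM in the labelled knockout libraries. In the siRNA table, too, 8 were listed, summing to 78.9 and 46.6 CPM with control siRNA and to 111 and 53 CPM with STAT6 siRNA. CD68 was the most abundant of these in both tables, and 7 of the 16, COL3A1, DCN, CDH5, VWF, ADIPOQ, FABP4 and MYH7, were listed in neither table, while COL1A1, PDGFRB, PECAM1, CD14, CD68, PLIN1 and CKM were listed in both.

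In the labelled knockout libraries, 3 of the 36 members tested rose against Hep3B and none fell. These were BDH1, which interconverts the ketone bodies, at 21-fold, ACADS, the short-chain acyl-CoA dehydrogenase, at 4.09-fold, and ACAA1, the peroxisomal thiolase, at 3.72-fold. Most of the other members lay higher without passing the test. Both knockout libraries lay above both Hep3B libraries for 24 of the 36 members, below both for 1 member, ECI1, and overlapped them for 11.

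The 3 members that rose were 8.33% of those tested, where 4.5% of all 14415 genes tested were called higher, and 0 members were called lower, where 1.39% of all genes were. Calls were made at an adjusted p below 0.05 in edgeR's quasi-likelihood test. At an unadjusted p below 0.05, 15 members were higher, that is, 41.7% of those tested against 15.6% of all genes, and 0 were lower, against 10.5% of all genes. The 24 members with both knockout libraries above both Hep3B libraries were 66.7% of those tested, where 30.6% of all genes had this order and 27.4% had the reverse. The median log2 fold change of the members was 0.89, where that of all genes tested was 0.01. Members ranged from -0.39 for PPARGC1A to 4.40 for BDH1, with 33 above 0 and 3 below. The count of calls moved with the libraries, over all genes as over the members. Without knockout library 1, 0 members and 0.493% of all genes were called, and without knockout library 2, 0 members and 0.14% of all genes. Without Hep3B library 1, 10 members were called, all higher, as were 9.75% of all genes, and these were the 3 with ACAD9, ACADSB, ACAT1, ACSL1, ACSL4, ACSL5 and FABP1. Without Hep3B library 2, 5 members were called, all higher, as were 5.67% of all genes, and these were the 3 with ACSL5 and EHHADH. In bulk samples, a change in the share of cells that express a gene and a change in RNA per cell cannot be told apart.

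The hepatocyte markers moved with this comparison. Of the 12, 4 rose (APOA1, APOH, TTR and FGB), or 33.3% against 4.5% of all genes. Both knockout libraries lay above both Hep3B libraries for 10 of them, or 83.3% against 30.6% of all genes, and the median log2 fold change was 1.53. Of the 6 tested markers of other cell types, 1 rose, or 16.7% against 4.5% of all genes, PDGFRB, with 2.84 and 1.27 CPM in Hep3B and 9.88 and 13.9 CPM in the labelled knockout libraries. Of these 6, 4 had both knockout libraries above both Hep3B libraries (PDGFRB, COL1A1, CD14 and CD68), or 66.7% against 30.6% of all genes, 3 were higher at an unadjusted p below 0.05, or 50% against 15.6%, and the median log2 fold change was 1.23. The part of either list in the result for the members was not tested.

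**Figure D1:**
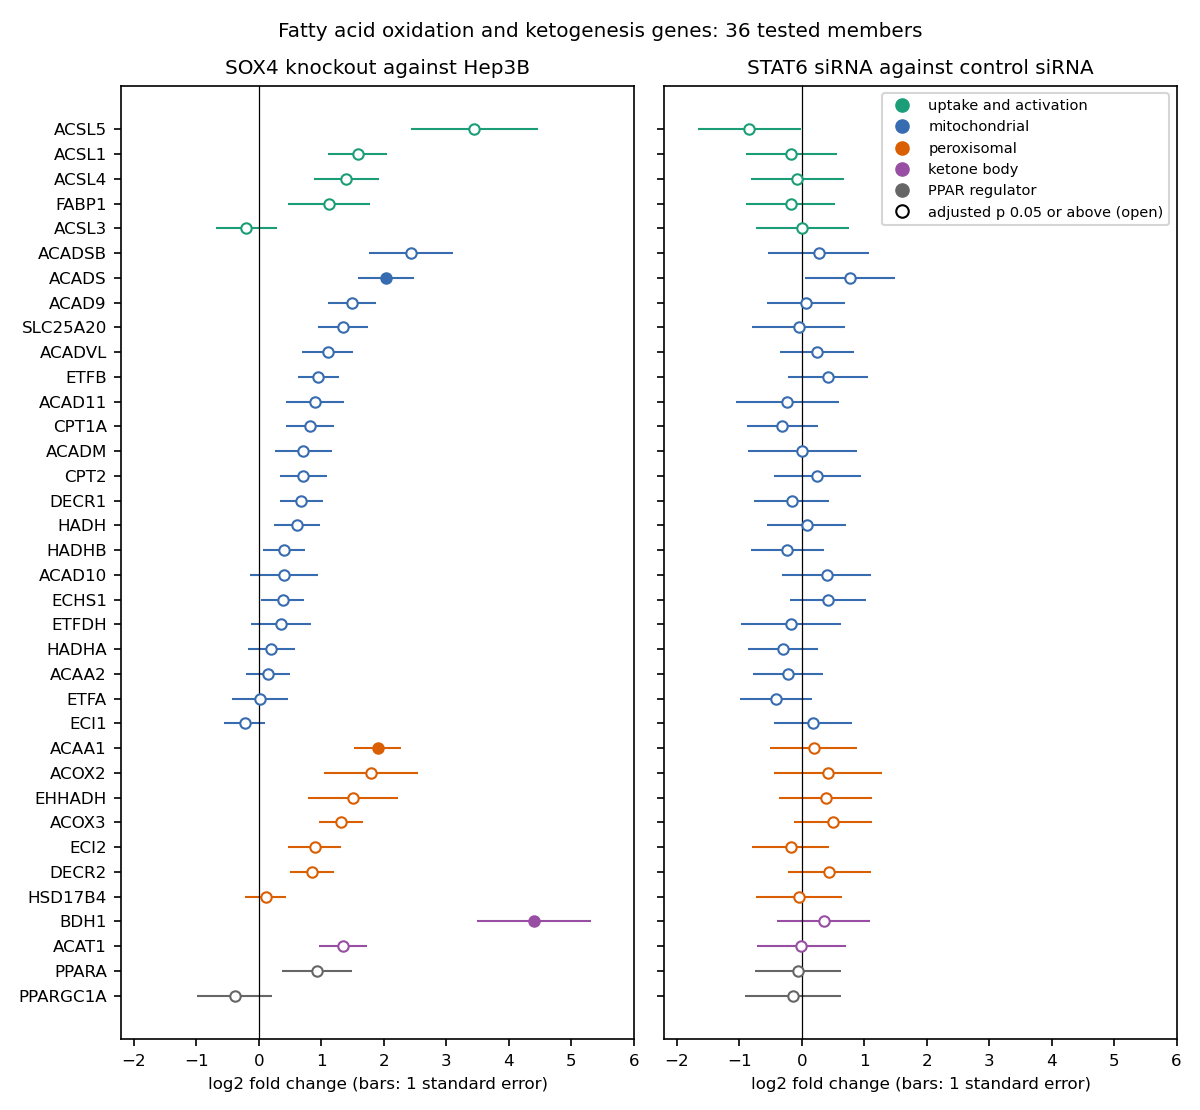
Log2 fold change (x axis) of the 36 tested members (y axis), ordered by role, for the labelled knockout libraries against Hep3B (left) and STAT6 siRNA against control siRNA (right), with bars of 1 SE. Filled points (BDH1, ACADS and ACAA1, left) passed an adjusted p of 0.05, open points did not, and the members spread from -0.39 to 4.40 on the left and from -0.84 to 0.77 on the right.

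After STAT6 siRNA, no member passed the test in either direction. Log2 fold changes ran from -0.84 for ACSL5 to 0.77 for ACADS, with a median of -0.00 where that of all genes was -0.03. Of the 36 members tested, 18 lay above 0 and 18 below. EHHADH, the peroxisomal bifunctional enzyme, was the member with both STAT6 siRNA libraries above both controls, and ACSL5, CPT1A and HADHA had both below.

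The count called was 0 of 36 members in each direction at an adjusted p below 0.05, where 0% of the 13554 genes tested were called higher and 0% lower. At an unadjusted p below 0.05 it was also 0 members, where 0.0516% of all genes were higher and 0.0516% lower, and DESeq2's Wald test called 0 members. A block for the library number also gave 0 members. With that block and offsets for GC content and length, 2 members were called, ACADS and ACOX3, among 389 genes (2.87%). The order with both treated libraries above both controls was held by 2.74% of all genes, and the reverse order by 5.26%. Compared within each library number on the log2(CPM + 1) scale, 13 members were higher with STAT6 siRNA in both numbers, 9 were lower in both and 14 did neither, that is, 36.1% higher and 25% lower against 29.3% and 32.7% of all genes. In this comparison the median of the 12 hepatocyte markers was 0.34 on the log2 scale, with all 12 above 0, 0 called and 0 at an unadjusted p below 0.05. The 5 tested markers of other cell types were all above 0, with a median log2 fold change of 0.85, 0 called and 0 at an unadjusted p below 0.05, and 3 of them, COL1A1, PDGFRB and CKM, had both STAT6 siRNA libraries above both controls. The part of either list in the result was not tested.

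The difference between the knockout effect and the siRNA effect was tested in a fit of all 8 libraries. No member passed, where 0.0769% of the 14313 genes tested did. At an unadjusted p below 0.05 there were 2 of 36 members, where 6.56% of all genes passed. DESeq2 called 1, BDH1, among 167 genes (1.17%). A block for the library number also called 1, BDH1, among 97 genes (0.678%). In edgeR without the block, the log2 difference was 3.92 for BDH1 (SE 1.10, adjusted p = 0.261). For ACSL5 it was 4.21 (SE 1.32, adjusted p = 0.349), each higher in the knockout comparison. The median difference of the members was 0.74, where that of all genes was -0.09.

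The uptake and activation members comprised the fatty acid translocase CD36, the liver fatty acid binding protein FABP1 and 4 long-chain acyl-CoA synthetases. Of the 5 tested in the knockout table, 0 passed and 4 had both knockout libraries above both Hep3B libraries, where 4.5% of all genes were called higher and 30.6% had this order, and the median log2 fold change was 1.40. CD36 had 4 and 0 counts in Hep3B and 24 and 8 in the labelled knockout libraries, and was too low to be tested. It was not listed in the siRNA table.

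ACSL5, the synthetase of highest fold in this group, was at 5.9 and 0.369 CPM in Hep3B and at 23.5 and 44.9 CPM in the labelled knockout libraries. The groups did not overlap, while the Hep3B libraries differed widely (log2 fold change 3.45, SE 1.02, adjusted p = 0.0873). The log2 fold change of ACSL5 was 6.45 without Hep3B library 1 (adjusted p = 8.5e-04) and 2.53 without Hep3B library 2 (adjusted p = 0.0148), and DESeq2 also called it (adjusted p = 0.00193). It did not pass without knockout library 1 (3.85, adjusted p = 0.195), without knockout library 2 (2.90, adjusted p = 0.341) or with robust estimation (adjusted p = 0.144). Among the siRNA libraries, ACSL5 was at 0.678 and 1.29 CPM in the controls and at 0.514 and 0.578 CPM with STAT6 siRNA (log2 fold change -0.84, SE 0.82, adjusted p = 1.00). ACSL5 differed by -0.15 within library number 1 and by -0.54 within number 2. Its low level there rested on 12 and 29 counts with control siRNA and 7 and 14 with STAT6 siRNA. Of its transcripts in the knockout table, NM_203379 carried 561 and 713.1 expected counts in the labelled knockout libraries and 85.91 and 0.007578 in Hep3B, the largest part of the gene's counts in 3 of the 4 libraries.

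ACSL1, the main hepatic synthetase, was at 47.2 and 27.5 CPM in Hep3B and at 73.2 and 150 CPM in the labelled knockout libraries, without overlap (log2 fold change 1.58, SE 0.47, adjusted p = 0.0895). The log2 fold change of ACSL1 was 0.95 without knockout library 2 (adjusted p = 0.468) and 1.96 without Hep3B library 1 (adjusted p = 0.0303). ACSL4, which prefers arachidonic acid, was at 315 and 145 CPM in Hep3B and at 441 and 777 CPM in the labelled knockout libraries (log2 fold change 1.40, SE 0.52, adjusted p = 0.141). FABP1 was at 98.8 and 19.6 CPM in Hep3B and at 123 and 134 CPM in the labelled knockout libraries (log2 fold change 1.12, SE 0.66, adjusted p = 0.32). For FABP1 the spread lay in the Hep3B libraries, the first of which was close to the knockout libraries. Without Hep3B library 1 the log2 fold change was 2.65 for FABP1 (adjusted p = 0.00475) and 2.01 for ACSL4 (adjusted p = 0.0344), and without Hep3B library 2 it was 0.38 for FABP1 and 0.95 for ACSL4. ACSL3, a synthetase of lipid droplets and the endoplasmic reticulum, was at 379 and 727 CPM in Hep3B and at 356 and 604 CPM in the labelled knockout libraries, and the groups overlapped (log2 fold change -0.20, SE 0.49, adjusted p = 0.822).

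In the siRNA table these 4 genes overlapped between the groups. ACSL1 was at 9.78 and 13.4 CPM with control siRNA and at 7.86 and 12.8 CPM with STAT6 siRNA. ACSL3 was at 58.7 and 209 CPM with control siRNA and at 53.9 and 216 CPM with STAT6 siRNA. ACSL4 was at 33.5 and 137 CPM with control siRNA and at 40 and 123 CPM with STAT6 siRNA, and for both ACSL3 and ACSL4 library 2 was far above library 1 in either group. FABP1 was at 22.7 and 22.6 CPM with control siRNA and at 12.3 and 27.6 CPM with STAT6 siRNA. Their log2 fold changes lay between -0.18 for FABP1 and 0.01 for ACSL3, each with an adjusted p of 1.00. Within library numbers 1 and 2, ACSL1 differed by -0.28 and -0.06, ACSL3 by -0.12 and 0.04, ACSL4 by 0.25 and -0.16, and FABP1 by -0.84 and 0.28.

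Differences between the libraries of a group were also laid out by role, without a test between roles. All 5 tested uptake and activation members were higher in knockout library 2 than in library 1, with a median log2(CPM + 1) difference of library 1 from library 2 of -0.82. All 7 peroxisomal members, both ketone body members and both PPAR regulators were higher in knockout library 1, with medians of 0.38, 1.35 and 0.98. The mitochondrial members divided into 12 higher in library 1 and 8 higher in library 2, with a median of 0.09. The 12 hepatocyte markers were all higher in knockout library 1, with a median of 0.95, where the median of all genes tested was 0.02. The Hep3B libraries differed too, with medians of library 1 from library 2 of 1.11 for uptake and activation, 0.24 for the mitochondrial, -0.19 for the peroxisomal and 0.60 for the ketone body members, 1.51 for the PPAR regulators and 0.23 for the hepatocyte markers, where that of all genes was -0.00. These are differences between individual libraries and have no replicate.

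**Figure D2:**
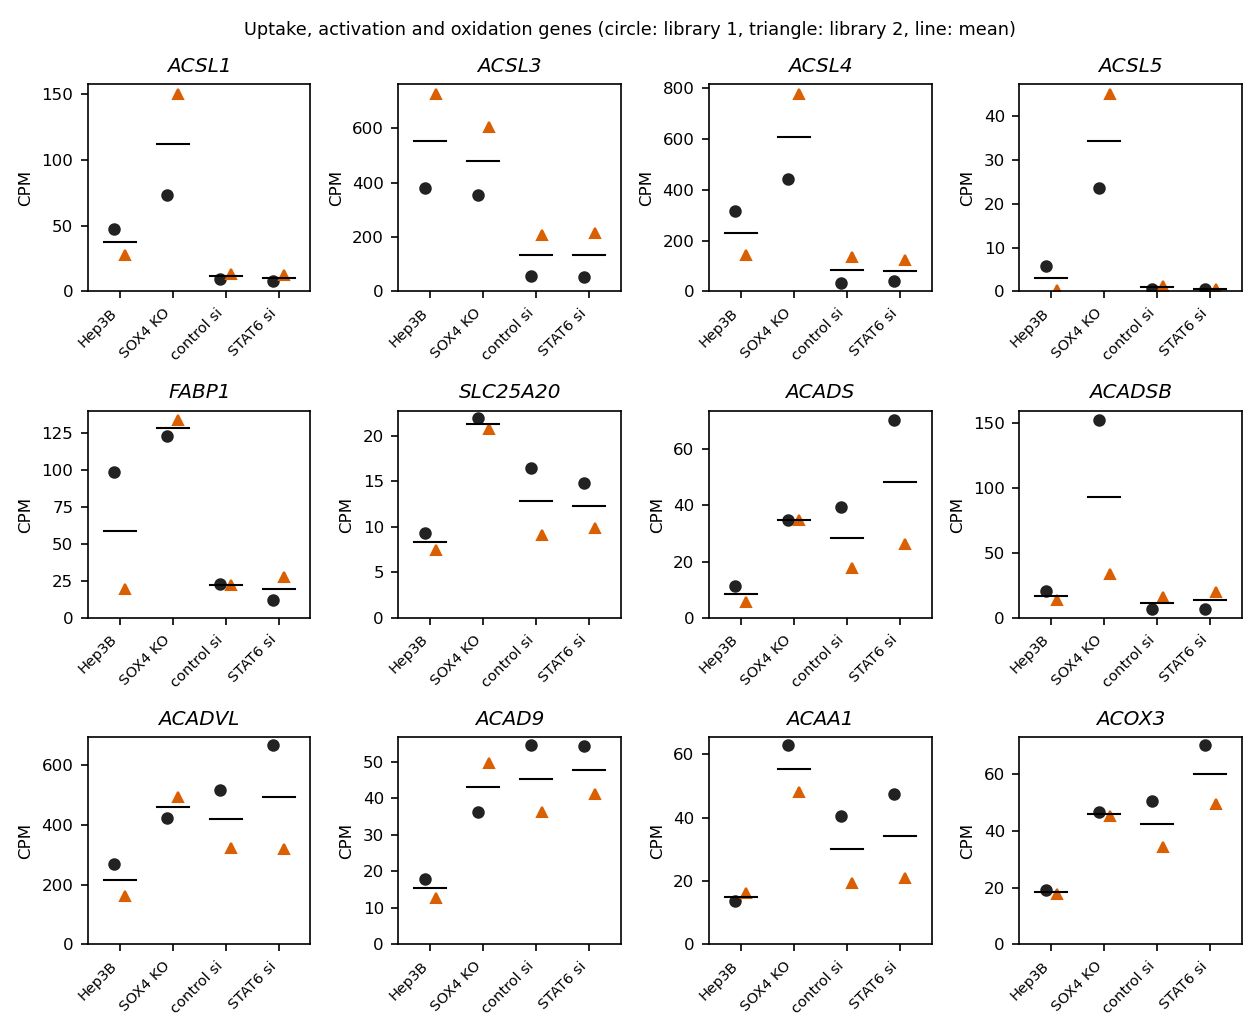
TMM-scaled CPM (y axes, from 0) of 12 named members of uptake, activation and oxidation in the 4 conditions (x axes), with a circle for library 1, a triangle for library 2 and a line at their mean, and each table scaled by itself. ACADS, ACAA1, ACOX3 and SLC25A20 show both SOX4 KO libraries close together and above both Hep3B libraries, and ACSL4 and FABP1 show wide spreads within a group.

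Of the 20 mitochondrial members, 1 rose in the labelled knockout libraries, 13 had both knockout libraries above both Hep3B libraries and 1 had both below, with a median log2 fold change of 0.69. The 1 called was 5% of these members, close to the 4.5% of all genes called higher, and the 13 were 65%, where 30.6% of all genes had this order. The member that rose was ACADS. Its level was 11.2 and 5.75 CPM in Hep3B and 34.6 and 34.9 CPM in the labelled knockout libraries, and the knockout libraries lay closer to each other than the Hep3B libraries did. Its log2 fold change of 2.03 had an SE of 0.45 and an adjusted p of 0.043. Corrected for GC content and length by offsets it was 1.46 and no longer passed (adjusted p = 0.0758), and it passed neither when knockout library 1 or 2 was left out nor in the fit of all 8 libraries, although the fold changes there, 2.05, 2.00 and 1.98 on the log2 scale, were about as large. ACADS was at 39.2 and 17.6 CPM with control siRNA and at 70.2 and 26.3 CPM with STAT6 siRNA, where the groups overlapped (log2 fold change 0.77, SE 0.72, adjusted p = 1.00). Within library numbers 1 and 2 the differences were 0.83 and 0.56 on the log2(CPM + 1) scale.

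ACADSB, the short/branched-chain acyl-CoA dehydrogenase that also serves isoleucine breakdown, had the largest log2 fold change of the mitochondrial members. Its level was 20.8 and 13.7 CPM in Hep3B and 152 and 33.9 CPM in the labelled knockout libraries. The groups did not overlap, but knockout library 1 stood far above library 2, and the call was missed (log2 fold change 2.43, SE 0.67, adjusted p = 0.0759). Without knockout library 1 the log2 fold change of ACADSB was 0.99 (adjusted p = 0.458), while it passed without Hep3B library 1 (2.70, adjusted p = 0.0377) and with DESeq2 (2.38, adjusted p = 0.00412). It did not pass without knockout library 2 (3.11, adjusted p = 0.0778) or without Hep3B library 2 (2.15, adjusted p = 0.0868). With control siRNA ACADSB was at 6.67 and 15.8 CPM, and with STAT6 siRNA at 6.83 and 20.3 CPM (log2 fold change 0.27, SE 0.81, adjusted p = 1.00). The differences of ACADSB within numbers 1 and 2 were 0.03 and 0.34.

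RefSeq's GRCh38.p14 windows of 300 bases around gene starts matched 30 of the 37 members. ACAA1, ACAD11, ACOX2, DECR1, DECR2, EHHADH and ETFDH had no window and were not searched. The windows were searched on both strands for the SOX core AACAAAG, the STAT6 pattern TTCNNNNGAA and the nuclear receptor half-site AGGTCA. Also searched was AGGTCANAGGTCA, the direct repeat bound by PPAR with its partner, which contains 2 half-sites. The SOX core was in 5.2% of 35116 windows of all genes and in 2 of 49 windows of the members, those of ACADSB and PPARGC1A. The half-site was in 13.8% of all windows and in 3 member windows, those of FABP1, ACSL5 and ACAD10. The STAT6 pattern was in 6.44% of all windows and in 2 member windows, both of CD36, which overlap and hold the same site. The direct repeat was in 0.0228% of all windows, that is, in 8 of 35116, and in 0 member windows. A string this rare would hardly occur in 49 windows, so the 0 cannot show that PPAR sites are absent. Forms that differ from these exact letters were not searched, among them the other forms of the paper's wider SOX4 consensus. A match describes only the letters in these windows.

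SLC25A20, the carnitine-acylcarnitine carrier of the inner mitochondrial membrane, was at 9.31 and 7.44 CPM in Hep3B and at 22 and 20.7 CPM in the labelled knockout libraries. These groups were well apart (log2 fold change 1.35, SE 0.40, adjusted p = 0.0894). ACAD9, an acyl-CoA dehydrogenase that also takes part in assembling respiratory complex I, was at 18 and 12.7 CPM in Hep3B and at 36.4 and 49.8 CPM in the labelled knockout libraries (log2 fold change 1.49, SE 0.39, adjusted p = 0.0661). ACADVL, the very-long-chain dehydrogenase, was at 267 and 161 CPM in Hep3B and at 423 and 492 CPM in the labelled knockout libraries (log2 fold change 1.10, SE 0.41, adjusted p = 0.146). None of the 3 passed, and none overlapped between the groups.

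In the siRNA table the same 3 genes overlapped between the groups. SLC25A20 was at 16.5 and 9.11 CPM with control siRNA and at 14.8 and 9.9 CPM with STAT6 siRNA. ACAD9 was at 54.6 and 36.3 CPM with control siRNA and at 54.4 and 41.3 CPM with STAT6 siRNA. ACADVL was at 515 and 321 CPM with control siRNA and at 665 and 320 CPM with STAT6 siRNA. Library 1 was above library 2 in both groups for each of them. Within numbers 1 and 2, SLC25A20 differed by -0.14 and 0.11, ACAD9 by -0.00 and 0.18, and ACADVL by 0.37 and -0.00.

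The other 15 mitochondrial members had log2 fold changes from -0.23 for ECI1 to 0.95 for ETFB in the labelled knockout libraries, and none passed the test. ECI1, an enoyl-CoA isomerase for unsaturated chains, was at 69.8 and 80 CPM in Hep3B and at 62.1 and 65.5 CPM in the labelled knockout libraries, and was the member with both knockout libraries below both controls (adjusted p = 0.697). CPT1A, the outer membrane carnitine palmitoyltransferase that controls entry of long chains, was at 81.8 and 121 CPM in Hep3B and at 216 and 141 CPM in the labelled knockout libraries (log2 fold change 0.82, SE 0.39, adjusted p = 0.225). HADHA, the alpha subunit of the trifunctional protein, was at 132 and 75.7 CPM in Hep3B and at 123 and 116 CPM in the labelled knockout libraries, with overlap. Its partner HADHB was at 67 and 59.3 CPM in Hep3B and at 86 and 80.2 CPM in the labelled knockout libraries (log2 fold change 0.40, SE 0.33, adjusted p = 0.48).

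In the siRNA table the members with both treated libraries below both controls included CPT1A, at 96.8 and 82.6 CPM with control siRNA and 77.7 and 67.2 CPM with STAT6 siRNA (log2 fold change -0.31, SE 0.57, adjusted p = 1.00). HADHA was at 118 and 119 CPM with control siRNA and at 81.7 and 111 CPM with STAT6 siRNA (log2 fold change -0.30, SE 0.56, adjusted p = 1.00). For CPT1A the differences within library numbers 1 and 2 were -0.31 and -0.29 on the log2(CPM + 1) scale, and for HADHA they were -0.52 and -0.10.

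All 7 peroxisomal members had a log2 fold change above 0 in the labelled knockout libraries, with a median of 1.31. Of these, 1 passed the test, where 4.5% of all genes were called higher, and 5 had both knockout libraries above both Hep3B libraries, where 30.6% of all genes did. ACAA1, which cleaves the shortened chain in the last step, was at 13.6 and 16.2 CPM in Hep3B and at 62.9 and 48 CPM in the labelled knockout libraries. The groups were far apart relative to the spread within either (log2 fold change 1.90, SE 0.37, adjusted p = 0.0331). With offsets for GC content and length it was 1.51 (adjusted p = 0.0654), and the call was also lost without knockout library 1, without knockout library 2 and in the fit of all 8 libraries, where the log2 fold changes were 1.70, 2.04 and 1.83. Among the siRNA libraries, ACAA1 was at 40.6 and 19.5 CPM in the controls and at 47.5 and 21.1 CPM with STAT6 siRNA, with overlap (log2 fold change 0.19, SE 0.70, adjusted p = 1.00). Its differences within numbers 1 and 2 were 0.22 and 0.11.

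ACOX3, an oxidase of branched-chain acyl-CoA, was at 19.2 and 17.7 CPM in Hep3B and at 46.4 and 45.1 CPM in the labelled knockout libraries (log2 fold change 1.31, SE 0.35, adjusted p = 0.0674). The libraries of each group were close together, yet the adjusted p did not reach the threshold. ACOX3 was at 50.3 and 34.3 CPM with control siRNA and at 70.1 and 49.5 CPM with STAT6 siRNA (log2 fold change 0.50, SE 0.62, adjusted p = 1.00). The groups overlapped there, while the differences within library numbers 1 and 2 were 0.47 and 0.51 on the log2(CPM + 1) scale.

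ACOX2, an oxidase that also acts on bile acid intermediates, was near the lower limit, with 6 and 10 counts in Hep3B and 53 and 19 in the labelled knockout libraries (log2 fold change 1.80, SE 0.75, adjusted p = 0.181). In the siRNA table it had 20 and 11 counts with control siRNA and 22 and 14 with STAT6 siRNA. ECI2, an enoyl-CoA isomerase, was at 23 and 43.7 CPM in Hep3B and at 72.2 and 51.1 CPM in the labelled knockout libraries (log2 fold change 0.89, SE 0.43, adjusted p = 0.235). With control siRNA ECI2 was at 53.5 and 38.8 CPM, and with STAT6 siRNA at 38.7 and 42.7 CPM, with overlap. Compared within numbers 1 and 2, ACOX2 differed by 0.30 and 0.08 and ECI2 by -0.46 and 0.13.

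EHHADH was at 3.12 and 11.7 CPM in Hep3B and at 30.9 and 11 CPM in the labelled knockout libraries, so knockout library 2 lay at the level of Hep3B library 2 (log2 fold change 1.50, SE 0.72, adjusted p = 0.234). The log2 fold change of EHHADH was 2.74 without Hep3B library 2 (adjusted p = 0.0267), 0.79 without Hep3B library 1 and 0.59 without knockout library 1. Among the siRNA libraries, it was at 3.22 and 2.84 CPM in the controls and at 3.31 and 4.58 CPM with STAT6 siRNA (log2 fold change 0.38, SE 0.74, adjusted p = 1.00). EHHADH differed by 0.03 within library number 1 and by 0.54 within number 2. HSD17B4, the other peroxisomal bifunctional enzyme, had a log2 fold change of 0.11 in the labelled knockout libraries and -0.05 with STAT6 siRNA, and DECR2, a dienoyl-CoA reductase, 0.85 and 0.44, with none past the test.

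Both ketone body members had both labelled knockout libraries above both Hep3B libraries, an order that 30.6% of all genes had, and 1 of them, BDH1, was called, where 4.5% of all genes were called higher. BDH1 was at 1.76 and 0.686 CPM in Hep3B and at 43.5 and 7.92 CPM in the labelled knockout libraries, from 31 and 13 counts and from 1149 and 144 counts. All 4 libraries were thus ordered by group, but knockout library 1 exceeded library 2 several times over. Its log2 fold change of 4.40 had an SE of 0.91 and an adjusted p of 0.0384. It was 2.70 without knockout library 1 (adjusted p = 0.232) and 5.13 without knockout library 2 (adjusted p = 0.0558), and with robust estimation the adjusted p was 0.0508. BDH1 was at 3.45 and 2.89 CPM with control siRNA and at 4.92 and 3.18 CPM with STAT6 siRNA, with overlap (log2 fold change 0.35, SE 0.74, adjusted p = 1.00). BDH1 differed by 0.41 within library number 1 and by 0.10 within number 2.

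The transcript NM_203315 carried most BDH1 reads, with 30.79 and 8.894 expected counts in Hep3B and 1116 and 138.5 in the labelled knockout libraries, and it was the BDH1 transcript listed in the siRNA table. It runs over chr3:197509783-197573323. The 250 bases before its RefSeq start, at chr3:197573344-197573593 on the minus strand of GRCh38.p14, are shown because this is the member of largest rise, and they hold none of the exact motifs searched, so there are no capitals. The paper gives SOX4 a wider consensus, in which A and T can replace each other at some positions of AACAAAG. The bases shown hold forms it allows, tacaaag as printed and atcaatg on the other strand, where it is printed as cattgat. Such forms were not searched or counted over all windows, so no conclusion is drawn from them.
BDH1: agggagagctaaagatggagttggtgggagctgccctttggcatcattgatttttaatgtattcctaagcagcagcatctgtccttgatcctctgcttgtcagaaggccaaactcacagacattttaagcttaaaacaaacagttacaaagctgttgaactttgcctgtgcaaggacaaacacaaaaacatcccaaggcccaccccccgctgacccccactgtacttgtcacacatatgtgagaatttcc

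ACAT1, the mitochondrial acetoacetyl-CoA thiolase that acts in both synthesis and use of ketone bodies, was at 25.3 and 17.7 CPM in Hep3B and at 62.2 and 47.6 CPM in the labelled knockout libraries. The groups did not overlap (log2 fold change 1.35, SE 0.38, adjusted p = 0.0776). With control siRNA ACAT1 was at 22.8 and 38.1 CPM, and with STAT6 siRNA at 16.5 and 44 CPM, with overlap (log2 fold change -0.01, SE 0.71, adjusted p = 1.00). ACAT1 differed by -0.45 within library number 1 and by 0.20 within number 2.

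Neither PPAR regulator passed in either comparison, and the groups overlapped for both. PPARA, which encodes the receptor, was at 61 and 28.1 CPM in Hep3B and at 124 and 46.2 CPM in the labelled knockout libraries (log2 fold change 0.93, SE 0.56, adjusted p = 0.334). The log2 fold change of PPARA was 0.06 without knockout library 1 and 1.53 without Hep3B library 1, so single libraries set its size. PPARGC1A, which encodes the coactivator, was at 93.4 and 23.6 CPM in Hep3B and at 53.2 and 35.8 CPM in the labelled knockout libraries (log2 fold change -0.39, SE 0.60, adjusted p = 0.721). That of PPARGC1A was 0.85 without Hep3B library 1. For both, the first library of a group was above the second. PPARA was at 21.6 and 38 CPM with control siRNA and at 19 and 37.9 CPM with STAT6 siRNA. PPARGC1A was at 14.3 and 43.6 CPM with control siRNA and at 13.6 and 39 CPM with STAT6 siRNA, and for both genes library 2 lay above library 1 in either group. The differences within library numbers 1 and 2 were -0.17 and -0.00 for PPARA and -0.07 and -0.16 for PPARGC1A on the log2(CPM + 1) scale.

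Of 8 other PPAR target genes, 7 were tested in the knockout table, where 0 passed, with 2 above both Hep3B libraries in both knockout libraries (PDK4 and CIDEC) and 1 below (PLIN2), where 30.6% of all genes had the first order and 27.4% the reverse. The 2 were 28.6% of those tested. At an unadjusted p below 0.05 there were 0 higher and 1 lower, PLIN2. PDK4, a kinase that restrains pyruvate oxidation, was at 1.48 and 1.48 CPM in Hep3B and at 4.09 and 1.92 CPM in the labelled knockout libraries (log2 fold change 1.03, SE 0.65, adjusted p = 0.358, but 0.39 without knockout library 1), and had 6 counts or fewer in each siRNA library. ANGPTL4, an inhibitor of lipoprotein lipase, was at 209 and 0.897 CPM in Hep3B and at 12.7 and 4.84 CPM in the labelled knockout libraries, so that the Hep3B libraries lay on either side of both knockout libraries (log2 fold change -3.57, SE 1.69, adjusted p = 0.227). ANGPTL4 was called in opposite directions without either of them, at 3.22 without Hep3B library 1 (adjusted p = 0.0222) and at -4.57 without Hep3B library 2 (adjusted p = 5.8e-04). PLIN2, a lipid droplet coat protein that like CIDEC was named after its values were seen, was at 2133 and 354 CPM in Hep3B and at 157 and 296 CPM in the labelled knockout libraries (log2 fold change -2.46, SE 0.82, adjusted p = 0.112). The log2 fold change of PLIN2 was -0.70 without Hep3B library 1 (adjusted p = 0.329) and -3.24 without Hep3B library 2 (adjusted p = 0.00377), and DESeq2 called it lower (adjusted p = 0.00679). After STAT6 siRNA, 0 of the 5 PPAR targets tested passed, with 0 at an unadjusted p below 0.05.

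Of 40 further genes of the same pathways, 37 were tested in the knockout table, where 2 rose and 0 fell, that is, 5.41% higher against 4.5% of all genes. Their median log2 fold change was 0.40, with 18, or 48.6%, above both Hep3B libraries in both knockout libraries and 5 below, against 30.6% and 27.4% of all genes. At an unadjusted p below 0.05, 11 were higher, or 29.7% against 15.6% of all genes, and 2 were lower, where 10.5% of all genes were. The 2 lower were FABP5 (log2 fold change -1.45, SE 0.48, adjusted p = 0.114) and SLC16A1 (-1.16, SE 0.36, adjusted p = 0.0975). The 3 ketone body genes tested among the 37 had a median of -0.02. SLC27A3, a fatty acid transport protein with acyl-CoA synthetase activity, was at 9.48 and 7.65 CPM in Hep3B and at 62.1 and 47.7 CPM in the labelled knockout libraries (log2 fold change 2.68, SE 0.39, adjusted p = 0.0186). CRAT, the carnitine acetyltransferase, was at 18.2 and 19.8 CPM in Hep3B and at 66.9 and 56.4 CPM in the labelled knockout libraries (log2 fold change 1.70, SE 0.35, adjusted p = 0.0385). SLC27A3 and CRAT did not pass without knockout library 1, without knockout library 2 or in the fit of all 8 libraries, where the log2 fold changes were 2.49, 2.83 and 2.62 for SLC27A3 and 1.58, 1.78 and 1.64 for CRAT, and CRAT was at 1.15 with offsets for GC content and length (adjusted p = 0.0994). After STAT6 siRNA, 0 of the 37 tested passed, with 0 at an unadjusted p below 0.05 and a median log2 fold change of -0.02.

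Compared per kilobase of transcript, the order of the members differed between the tables. In Hep3B the highest mean levels were those of ACSL3 at 176 CPM per kilobase, FABP1 at 107, ACADVL at 94.2 and ETFA at 89.8, and each overlapped its neighbour in this order. ETFA encodes a subunit of the flavoprotein that accepts electrons from the dehydrogenases. Among the labelled knockouts the order was FABP1 at 232, ACADVL at 201, ACSL3 at 152 and ACSL4 at 120, where FABP1, at 222 and 242, did not overlap ACADVL, at 186 and 217, and the next neighbours overlapped. With control siRNA and with STAT6 siRNA the highest was ACADVL, at 182 and 215 CPM per kilobase, followed by ECHS1, the short-chain enoyl-CoA hydratase, at 104 and 140. Their libraries overlapped with STAT6 siRNA and did not with control siRNA, where ACADVL was at 225 and 140 and ECHS1 at 137 and 71. The lowest members with a length were ACOX2 and CD36 in the knockout table and ACOX2 and ACSL5 in the siRNA table.

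Set side by side, with each table scaled by itself and no test between the tables, the summed level of the members was 2501 and 2170 CPM in Hep3B, 3542 and 3834 CPM in the labelled knockout libraries, 2358 and 2122 CPM with control siRNA and 2507 and 2205 CPM with STAT6 siRNA. The uptake and activation members made up 846 and 920 CPM of this in Hep3B and 1018 and 1709 CPM in the labelled knockout libraries, against 125 and 384 CPM with control siRNA and 114 and 379 CPM with STAT6 siRNA. The peroxisomal members made up 153 and 173 CPM in Hep3B, 326 and 258 CPM in the labelled knockout libraries, 237 and 203 CPM with control siRNA and 260 and 238 CPM with STAT6 siRNA.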

How the data were processed

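RNA-seq libraries of Hep3B cells were prepared from TRIzol-purified RNA with a stranded mRNA kit. For each comparison, the authors deposited a table of expected counts per RefSeq transcript, as estimated by their quantifier and not normalized. STAR, Partek and hg38 are named in the submitters' processing notes, without versions. The tables hold 33253 and 30650 transcripts, each summing to at least 10 counts over its 4 libraries, and 0 columns lacked a library. Spreadsheet dates stood in place of 19 gene names per comparison and were told apart by chromosome. Estimation can split reads between near-identical genes, and whether strand was used in counting is not given in the sources used here.

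The expected counts were added up by gene symbol, then rounded. Each table was fitted by itself with edgeR 4.0.16 under R 4.3.3 (TMM factors, filterByExpr, and glmQLFit at its defaults before glmQLFTest), with calls at a Benjamini-Hochberg adjusted p below 0.05 over all genes tested. The standard error is the log2 fold change divided by the square root of the F statistic. The difference between the effects was tested by a contrast over all 8 libraries on genes in both tables. Levels per kilobase and GC offsets (mgcv 1.9.3) used GENCODE transcripts, with a length and GC content for 37 and 36 members. Common dispersions were 0.145 (knockout comparison) and 0.243 (siRNA comparison).

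The members, the lists and the tests were chosen with earlier results of these data known. Full values were given for members that passed a test, for those with both treated libraries beyond both controls at an absolute log2 fold change of at least 1, and, in each role, for the members of highest level and largest change. Alternatives tried were upper-quartile and median-of-ratios factors, DESeq2 1.42.0, no filter or a minimum of 10 counts in each library, robust estimation (robust = TRUE), a block for the library number, GC and length offsets with and without it, a fit of all 8 libraries, and leaving out each library. The steps were tested on simulated data. Positions overlapped the RefSeq GRCh38.p14 gene for 37 of 37 members, and promoter windows came from RefSeq. Some genes of these pathways are not reported here and were left out of the lists. The study's other assays were not analysed here.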

Additional observations from a re-analysis of the deposited data

How the results depend on the processing

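In the knockout comparison, 3 members were called higher. DESeq2 called 10 (these 3 with ACAD9, ACADSB, ACAT1, ACOX3, ACSL1, ACSL5 and SLC25A20), offsets for GC content and length 1 (BDH1), the fit of all 8 libraries 1 (BDH1), and the offsets with the replicate block 0, where the members' median was 0.75 instead of 0.89 and STAT6 did not pass (adjusted p = 0.0627). The offsets moved the median of all genes from 0.01 to -0.10. Leaving out each library in turn gave 0 to 10 members and medians from 0.62 to 0.96. Over all genes, 849 were called, but 2160 by DESeq2, 518 with at least 10 counts in every library, 438 in the fit of all 8 libraries, 60 with offsets and the replicate block, and from 21 without knockout library 2 to 2298 without Hep3B library 1 when a library was left out. In the siRNA comparison 0 members were called, but 2 with offsets and the replicate block, ACADS (0.44) and ACOX3 (0.45), among 389 genes, or 2.87%, and the median lay between -0.35 and -0.01 when a library was left out. In the difference test, DESeq2 and the replicate block each called 1 member, BDH1, and over all genes 11 calls became 167 with DESeq2, 67 with offsets and 97 with the replicate block. The causes of these changes were not tested.

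The labels do not say what a library number shares, and the difference between libraries 1 and 2 correlated between the groups across genes with Pearson's r of -0.07 for the knockout libraries and 0.91 for the siRNA libraries. With the replicate block alone, 4 members were called in the knockout comparison (ACAA1, ACADS, ACADSB and BDH1, among 982 genes) and 0 in the siRNA comparison (among 62 genes, where STAT6 was called), with ACSL3 at -0.04 and ACSL4 at 0.04 in the siRNA comparison, both on the other side of 0 from the fit without it.

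With all libraries kept, the other changes of sign were also in the siRNA comparison. With median-of-ratios factors and with DESeq2, ACAT1 was at 0.04 and SLC25A20 at 0.06. In the fit of all 8 libraries ACAT1 was at 0.02 and SLC25A20 at 0.01. With offsets ACAA1 was at -0.03, ACADVL at -0.00, ACAT1 at 0.08, ACSL4 at 0.29, ECI1 at -0.11, PPARA at 0.01 and SLC25A20 at 0.02. With offsets and the replicate block ACAA1 was at -0.03, ACADVL at -0.01, ACAT1 at 0.08, ACSL4 at 0.29, ECI1 at -0.11, ECI2 at 0.00, PPARA at 0.01, PPARGC1A at 0.01 and SLC25A20 at 0.03.

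Leaving out each library in turn turned the sign of 5 genes in the knockout comparison. Their ranges were -4.57 to 3.22 for ANGPTL4, -1.07 to 0.85 for PPARGC1A, -1.42 to 0.11 for SOX4, -0.68 to 0.34 for ACSL3 and -0.15 to 0.60 for HADHA. In the siRNA comparison the ranges of the genes whose sign turned were -0.72 to 1.03 for ACADSB, -1.32 to 1.20 for ACSL3, -0.39 to 0.12 for ECI2, -0.42 to 0.51 for SLC25A20, -0.51 to 0.90 for ACAA1, -0.19 to 0.46 for ACAD9, -0.39 to 0.69 for ACADVL, -0.89 to 0.53 for ACAT1, -0.47 to 1.20 for ACOX2 and -0.57 to 0.14 for ACSL1. They were -1.10 to 1.29 for ACSL4, -0.56 to 0.87 for ECI1, -0.65 to 0.40 for PPARA, -1.10 to 0.89 for PPARGC1A, -1.61 to 0.50 for SOX4, -0.11 to 1.54 for ACADS, -0.25 to 0.95 for ANGPTL4, -0.13 to 1.24 for CRAT, -0.89 to 0.28 for FABP1, -0.47 to 0.07 for PLIN2 and -0.35 to 1.70 for SLC27A3. With 1 library left in a group, that library was assumed to vary like the other group.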
